A study of Mus musculus with 4 samples.

Results

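The Gata3 locus and its distal elements are described here as the open regions that lie within the mm10 gene record of Gata3 or within 300 kb on either side of it. The RefSeq record runs on the reverse strand of chromosome 2 from 9857078 to 9887953, so the window covered 630876 bases, from 9557078 to 10187953, and its start site of the curated transcript lies at 9878600. Peaks of the 4 libraries that shared at least 1 base were merged, which left 64 regions in the window of 93679 in the genome. They were numbered R01 to R64 along the chromosome, so that R01 lies farthest downstream of the gene and R64 farthest upstream.

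GATA3 is a zinc finger transcription factor that binds the motif for which its family is named, and it is needed both for the development of T cells and for the Th2 fate of CD4+ T cells. In Th2 differentiation, IL-4 acts through STAT6 to raise Gata3 transcription, and GATA3 then acts on the Il4, Il5 and Il13 genes. Control elements of Gata3 are spread over a long, gene-poor stretch of the chromosome, and a T and NK cell enhancer far downstream of the gene is known.

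The assay was ATAC-seq, in which a transposase inserts adapters into DNA that is not covered by nucleosomes. Naive CD4+ T cells from the spleen of wild-type male C57BL/6 mice, 7 weeks old, were activated for 48 h with antibodies to CD3 at 5 µg/ml and CD28 at 1 µg/ml, and TGF-β1 at 5 ng/ml with IL-2 at 10 ng/ml was added to induce Tregs. All 4 cultures shared these agents, and IL-4 was left out of 2 of them (iTreg+PBS) and added at 15 ng/ml to the others (iTreg+IL-4). The study calls its samples pooled and biologically independent, the labels name no animals, and no sort after culture is described, so each library may mix cells of different fates, whose shares and whose openness per cell cannot be told apart.

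In the deposited lists there were 77064 peaks for iTreg+PBS 1, 56645 for iTreg+PBS 2, 78670 for iTreg+IL-4 1 and 67743 for iTreg+IL-4 2. The list of iTreg+PBS 2 was the shortest and had the lowest median −log10 q-value, 15.2 against 22.1 to 25.1 in the other lists. The number of reads is unknown, so heights were not compared between libraries, and the lack of a peak says only that the signal did not reach the caller's threshold. Each region was instead given a rank within each list, the percent of that list's peaks with a higher −log10 q, so that 0 is the strongest peak and a lower rank is a higher standing. Start sites of the T cell genes Cd3e, Cd3g, Cd4, Cd5 and Lck had a peak within 1 kb in all 4 libraries, whereas those of the B cell gene Cd79a, the myeloid genes Csf1r, Adgre1 and Lyz2 and the NK cell gene Ncr1 had none in any library. The start site of the epithelial gene Epcam was called in all 4 libraries, at ranks of 43.3 and 44.9 without IL-4, against 37.7 and 31.2 with IL-4, and its part in the results was not tested.

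The sequences at the centres of the regions on which the results turn are shown first, with the promoter. Each is 200 bases of GRCm38 (mm10) from the RefSeq assembly, written 5′ to 3′ on the reverse strand, which is the strand of Gata3 mRNA, and capitals mark matches on either strand to the motifs described further on. The promoter is the stretch directly before the start site, and it is identical to the matching part of the RefSeq promoter entry of Gata3. The regions of the gene record shown are R40, which had the best mean rank of the record, R38 and R36, which stood higher with IL-4 in 2 introns, and R37, which stood lower. R39, which also stood higher, shares bases with the promoter shown.
Promoter, chr2:9878601-9878800: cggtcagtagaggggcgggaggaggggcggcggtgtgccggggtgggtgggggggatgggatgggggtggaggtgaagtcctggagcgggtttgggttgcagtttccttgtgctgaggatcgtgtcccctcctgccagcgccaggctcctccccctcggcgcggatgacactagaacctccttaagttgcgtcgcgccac
R40, chr2:9879447-9879646: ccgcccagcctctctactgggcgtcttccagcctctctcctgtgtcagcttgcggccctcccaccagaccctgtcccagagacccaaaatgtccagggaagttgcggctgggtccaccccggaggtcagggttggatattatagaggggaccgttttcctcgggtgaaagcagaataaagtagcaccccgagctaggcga
R38, intron 2, chr2:9876050-9876249: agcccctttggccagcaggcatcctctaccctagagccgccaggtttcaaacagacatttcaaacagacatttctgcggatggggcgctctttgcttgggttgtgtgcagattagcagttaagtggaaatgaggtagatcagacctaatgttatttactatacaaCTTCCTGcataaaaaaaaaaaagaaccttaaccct
R37, intron 3, chr2:9871549-9871748: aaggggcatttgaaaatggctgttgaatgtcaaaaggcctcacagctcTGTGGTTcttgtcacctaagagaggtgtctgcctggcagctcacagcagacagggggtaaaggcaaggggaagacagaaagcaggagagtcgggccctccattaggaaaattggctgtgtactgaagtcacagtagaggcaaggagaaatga
R36, intron 4, chr2:9867298-9867497: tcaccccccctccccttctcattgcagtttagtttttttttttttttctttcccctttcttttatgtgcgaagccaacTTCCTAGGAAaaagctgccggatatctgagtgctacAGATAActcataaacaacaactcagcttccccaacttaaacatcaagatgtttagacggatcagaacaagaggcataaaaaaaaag

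The distal set shows R34, R10 and R05, which were called only with IL-4, R12, which had the largest rank difference of the window, and R04, which had the best mean rank of the distal regions.
R34, chr2:9854127-9854326: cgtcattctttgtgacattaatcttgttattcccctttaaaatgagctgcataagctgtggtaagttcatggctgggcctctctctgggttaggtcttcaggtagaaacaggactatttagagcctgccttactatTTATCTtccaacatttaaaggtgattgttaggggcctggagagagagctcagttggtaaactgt
R12, chr2:9650014-9650213: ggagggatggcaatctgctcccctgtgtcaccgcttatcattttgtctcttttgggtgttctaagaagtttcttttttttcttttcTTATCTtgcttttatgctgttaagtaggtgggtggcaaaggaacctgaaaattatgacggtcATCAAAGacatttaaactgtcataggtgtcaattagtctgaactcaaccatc
R10, chr2:9625641-9625840: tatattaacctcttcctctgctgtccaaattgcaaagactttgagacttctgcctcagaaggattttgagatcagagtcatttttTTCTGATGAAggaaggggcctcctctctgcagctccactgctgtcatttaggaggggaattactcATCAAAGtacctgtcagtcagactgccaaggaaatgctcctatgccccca
R05, chr2:9586578-9586777: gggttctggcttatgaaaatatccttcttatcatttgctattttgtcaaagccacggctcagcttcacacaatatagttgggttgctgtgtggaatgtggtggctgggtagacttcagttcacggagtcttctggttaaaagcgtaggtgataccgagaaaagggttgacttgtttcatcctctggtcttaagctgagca
R04, chr2:9578070-9578269: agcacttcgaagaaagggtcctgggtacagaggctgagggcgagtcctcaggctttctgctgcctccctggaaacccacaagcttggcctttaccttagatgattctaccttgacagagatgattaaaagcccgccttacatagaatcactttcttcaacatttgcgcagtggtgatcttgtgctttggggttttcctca

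The promoter of Gata3 was open under both conditions. Region R39, at 9878163 to 9878723, covered exon 1 and the start site and was called in all 4 libraries, at ranks of 26.7 and 39.99 in iTreg+PBS and 19.2 and 24.2 in iTreg+IL-4. The groups did not overlap, and the mean rank was 33.3 ± 9.42 without IL-4 and 21.7 ± 3.60 with IL-4 (SD, n = 2), a difference of -11.6 percentage points (exact two-sided permutation test, p = 0.333). In this design 0.333 is the smallest p that this test can give, so no rank difference of a region can pass a threshold of 0.05. The difference at R39 was -4.96 without iTreg+PBS 2 and -18.3 without iTreg+PBS 1, and -6.25 when peaks were ranked by height.

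A stronger region, R40, lay just upstream of the start site, with its centre 0.947 kb away at 9879194 to 9879900. It stood at 7.74 and 9.56 in iTreg+PBS and at 9.22 and 12.0 in iTreg+IL-4, so the groups overlapped and the difference of 1.97 was smaller than the gap between the iTreg+IL-4 libraries. This difference ranged from 0.576 (without iTreg+IL-4 2) to 3.36 (without iTreg+IL-4 1) when each library was left out in turn and was 1.053 without iTreg+PBS 1. It was 0.486 by height, and 4.2 with ranks among the regions called in all 4 libraries. By height, R40 was the tallest region of the gene record in each of the 4 libraries. By −log10 q it was the strongest of the record in 3 libraries, and in iTreg+IL-4 2 the intronic region R36 exceeded it, with 202 against 171.

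Introns 2 to 5 each held 1 region called in all 4 libraries, and no region of the window overlapped exons 2 to 6. R38 in intron 2, at 9875726 to 9876574, was centred 2.45 kb downstream of the start site. It also lay within 1 kb of another annotated start site of Gata3 and of one of Gm13256. It stood at 23.7 and 23.1 without IL-4, against 17.8 and 13.4 with IL-4, a difference of -7.78 with no overlap between the groups. R36 in intron 4, at 9866929 to 9867867 and 11.2 kb downstream, had the best mean rank of the regions inside the curated transcript. Its ranks were 13.4 and 18.5 in iTreg+PBS and 9.35 and 10.2 in iTreg+IL-4, again without overlap, and the means were 16.0 ± 3.59 and 9.78 ± 0.60 (SD, n = 2). The difference at R36 was -6.20, and -3.66 without iTreg+PBS 2. At R38 it was -5.05 by height. R35 in intron 5, at 9860830 to 9861371, spread most widely of the regions in the gene record, with ranks of 44.2 and 77.9 without IL-4, against 36.3 and 52.4 with IL-4, and the groups overlapped. Its difference of -16.7 became 0.203 without iTreg+PBS 2.

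R37 in intron 3, at 9871217 to 9872081 and 6.95 kb downstream, moved the other way. It stood at 40.8 and 49.7 in iTreg+PBS and at 51.6 and 69.6 in iTreg+IL-4, with means of 45.2 ± 6.33 and 60.6 ± 12.8 (SD, n = 2) and a difference of 15.4. This was the only region of the window whose iTreg+IL-4 ranks both stood lower than both iTreg+PBS ranks. When peaks were ranked by height in place of −log10 q, its ranks were 22.2 and 27.1 without IL-4, against 23.0 and 27.9 with IL-4, and the groups overlapped. By −log10 q the difference was 24.4 without iTreg+IL-4 1 and 6.32 without iTreg+IL-4 2.

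**Figure D1:**
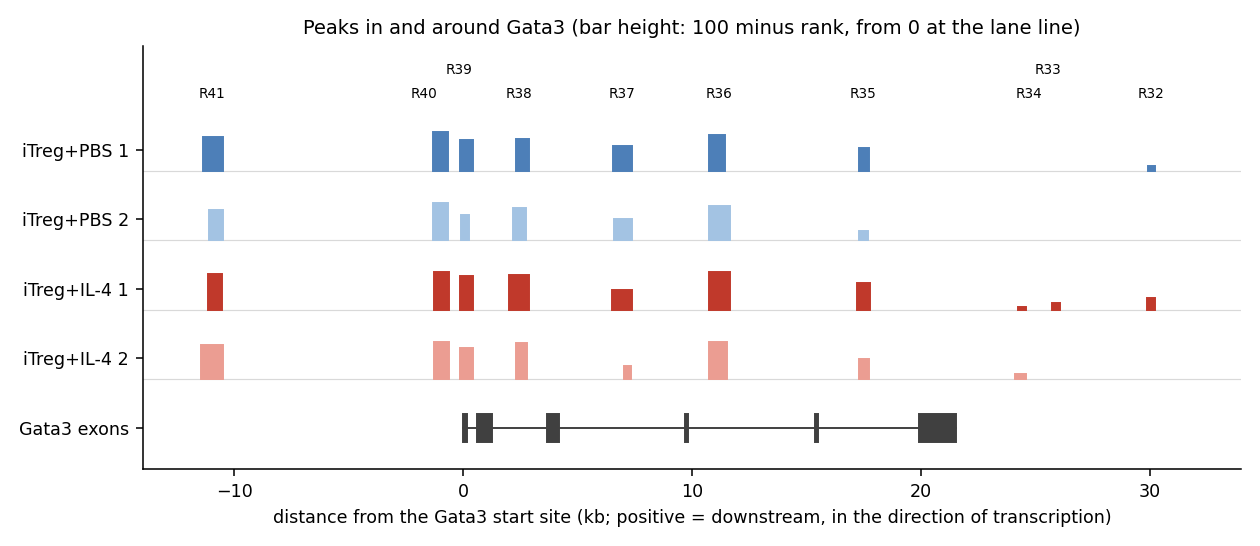
Peaks of each library in and around Gata3, against the distance from the start site in kb, drawn to scale; the height of a bar is 100 minus its rank, and boxes at the bottom are the 6 exons. R35 to R41 are called in all 4 libraries, R34 only in both iTreg+IL-4 libraries, and R37 has its lowest bars with IL-4.

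Near the 5′ end, R41 at 9889084 to 9890026 was centred 11 kb upstream. It lay over the start of the noncoding gene 9230102O04Rik and of longer Gata3 transcripts of the GENCODE annotation. Its ranks of 18.1 and 26.1 without IL-4, against 14.7 and 17.1 with IL-4, did not overlap, with a difference of -6.14, which was -2.14 without iTreg+PBS 2 and -10.1 without iTreg+PBS 1. Downstream of the last exon, R32, R33 and R34 lay within 10 kb of the gene record and were weak. R32 was called in iTreg+PBS 1 at 87.2 and in iTreg+IL-4 1 at 72.8, and R33 was called in iTreg+IL-4 1 alone, at 84.3. R34, at 9853993 to 9854460 and 24.4 kb from the start site, was called with IL-4 only, at ranks of 92.4 and 87.6.

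Seen over the whole window, 34 of the 64 regions (53.1%) were called in all 4 libraries, against 51% of all regions of the genome. A further 10 regions were called in 3 libraries, 9 in 2 and 11 in 1. Of the 10 called in 3 libraries, 8 were missing in iTreg+PBS 2 alone, as were 72.9% of such regions across the genome. Regions were 165 to 1567 bases wide with a median of 475 bases, against 457 genome-wide. Of the 64, 39 were centred downstream and 25 upstream of the start site, and 56 had no annotated start site within 1 kb and are called distal. Among the distal regions 26 of 56 (46.4%) were called in all 4 libraries, against 43.3% of the distal regions of the genome, a background that was added, here and for the distal counts that follow, after seeing the data. Both shares lay near their background.

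**Figure D2:**
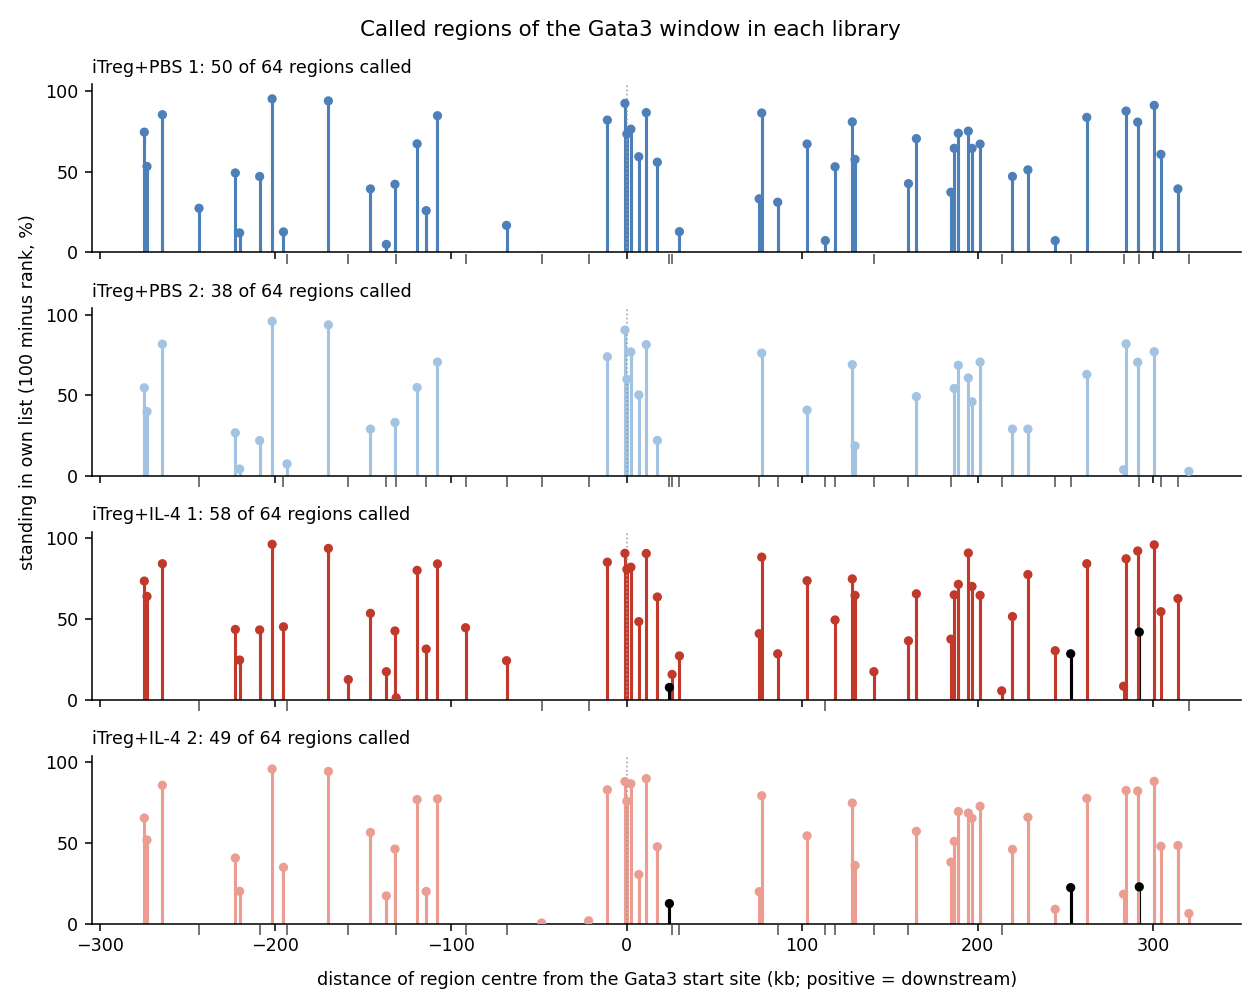
Standing of each called region in its own list (100 minus rank, in percent) against the distance of its centre from the Gata3 start site in kb, 1 panel per library. Grey ticks below an axis mark regions not called in that library and black stems the 3 regions called only with IL-4; iTreg+PBS 2 has 38 of 64 regions and iTreg+IL-4 1 has 58.

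The libraries held 50 and 39 peaks in the window without IL-4, against 58 and 49 with IL-4, which is 0.0649%, 0.0688%, 0.0737% and 0.0723% of their lists. The mean was 44.5 ± 7.78 without IL-4 and 53.5 ± 6.36 with IL-4 (SD, n = 2), a difference of 9 peaks (exact two-sided permutation test, p = 0.667). Peaks covered 26009 and 19492 bases in iTreg+PBS and 29820 and 25961 bases in iTreg+IL-4, a difference in means of 5140 bases (exact permutation test, p = 0.667). In counts and in bases the groups overlapped, since iTreg+PBS 1 exceeded iTreg+IL-4 2. When each list was cut to as many of its strongest peaks as the shortest list holds, the differences were 4 peaks and 3827.5 bases, and neither overlapped between the groups (exact permutation test, p = 0.333 for each, the smallest possible). As a share of its list, however, the window held more peaks in both iTreg+IL-4 libraries than in either iTreg+PBS library.

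Within 10 kb of the start site lay 4 regions, all called in every library. Downstream, 8 regions lay at 10 to 100 kb, 13 at 100 to 200 kb and 15 beyond 200 kb, of which 3, 8 and 7 were called in all 4 libraries. Upstream, 5 regions lay at 10 to 100 kb, 11 at 100 to 200 kb and 8 farther away, of which 1, 5 and 6 were called in all 4 libraries. Of all regions of the genome 51% were called in all 4 libraries, and of distal regions 43.3%. Differences between the stretches were not tested. The longest stretch without any peak was 45.1 kb, between R31 and R32 downstream of the gene. Between regions called in every library it was 95.9 kb, from R41 to R46, a stretch that reaches into the Taf3 gene.

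The far downstream end held several strong regions. R04, at 9577781 to 9578559 and 300 kb from the start site, stood at 8.95 and 23.0 in iTreg+PBS and 3.98 and 11.9 in iTreg+IL-4. The rank in iTreg+IL-4 1 was the highest standing of any distal region of the window, but the groups overlapped. R06, at 9587199 to 9587960, ranked 19.3 and 29.5 without IL-4, against 7.78 and 17.9 with IL-4, without overlap. R09, at 262 kb, stood at 16.4 and 37.0 without IL-4, against 15.7 and 22.5 with IL-4. Between them R07 lay near the start of the noncoding gene Gm13218 and had nearly equal ranks, 12.5 and 18.1 against 12.6 and 17.6.

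The strong distal regions R30 and R62 had ranks that overlapped between conditions. R30, at 9801347 to 9801984 and 76.9 kb downstream, stood at 13.7 and 23.8 without IL-4, against 11.6 and 20.8 with IL-4. R62, at 10142632 to 10143181 and 264 kb upstream, stood at 14.7 and 18.3 without IL-4, against 15.7 and 14.3 with IL-4. The differences, -2.57 and -1.51, turned to 2.51 and 0.257 without iTreg+PBS 2, and that of R30 to 2.04 without iTreg+IL-4 1.

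Start sites of Atp5c1, Kin and Taf3, upstream of Gata3, were open to nearly the same rank in every library. R57, over the start sites of Atp5c1 (a subunit of mitochondrial ATP synthase) and Kin, ranked 4.92 and 4.13 without IL-4, against 3.65 and 4.22 with IL-4. R54, over the start site of Taf3 (a subunit of the general transcription factor TFIID), ranked 6.18 and 6.34 without IL-4, against 6.19 and 5.76 with IL-4. Both stood in the upper 10% of every list. Of the regions of Gata3 itself, R40 did so in 3 lists, and R36 in iTreg+IL-4 1. R64, over the start site of Itih5 farther upstream, varied more. It ranked 25.6 and 45.3 without IL-4, against 26.4 and 34.6 with IL-4.

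Calls in both IL-4 libraries and in no PBS library were made for 3 regions (R05, R10 and R34), which is 4.69% of the 64 against 2.6% of all regions. All 3 were distal and made up 5.36% of the 56 distal regions against 3.03% of distal regions genome-wide. The opposite pattern, calls without IL-4 only, was found in 0 of the 64 regions, a pattern of 0.699% of all regions. R05, at 9586559 to 9586796, lay beside R06 in the far downstream group and ranked 58.0 and 77.3 in the 2 iTreg+IL-4 libraries. R10, at 9625642 to 9625839 and 253 kb downstream, ranked 71.5 and 77.8. By −log10 q all 3 thus stood in the lower part of the lists in which they were called, whereas by height R05 ranked 36.4 and 55.1. In lists of equal length the count was again 3 (5.66%, against 1.92% of all regions). Without iTreg+PBS 1 it was 11 (17.7%, against 13.6%), without iTreg+IL-4 1 it was 5 (8.62%, against 7.25%) and without iTreg+IL-4 2 it was 9 (14.5%, against 11.1%), so the share of all regions rose as well.

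Among the 34 regions called in all 4 libraries, the median rank was 26.5 and 39.6 without IL-4, against 23.7 and 29.0 with IL-4. The means were 33.02 ± 9.29 and 26.4 ± 3.71 (SD, n = 2), with a difference of -6.66 and overlap between the groups (exact permutation test, p = 0.667). In lists of equal length the difference was -5.55, and with ranks among the regions called in all 4 libraries, an alternative added after seeing the data, it was -4.59. In neither of these did the groups overlap (exact permutation test, p = 0.333 for each, the smallest possible). By height the difference was -3.36 and the groups overlapped. Leaving out iTreg+PBS 2 reduced the difference of -6.66 to -1.02, leaving out iTreg+IL-4 1 to -4.04, and leaving out iTreg+PBS 1 moved it to -12.1. In 28 of the 34 regions iTreg+PBS 2 had the lowest standing of the 4 libraries, as in 67.4% of such regions genome-wide.

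Region by region, the 2 iTreg+IL-4 ranks both stood higher than the 2 iTreg+PBS ranks in 11 of the 34 regions (32.4%), against 19.7% of the regions called in all 4 libraries genome-wide. They both stood lower in 1 region (2.94%, against 5.18%), and the groups overlapped in 22. Among the 26 distal regions the counts were 8 higher (30.8%, against 19.8%) and 1 lower (3.85%, against 5.1%). The median difference over the 34 regions was -6.47, against -2.05 for all such regions, and it was negative in 28 (82.4%, against 73.3%). For distal regions alone the medians were -7.85 and -3.23.

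**Figure D3:**
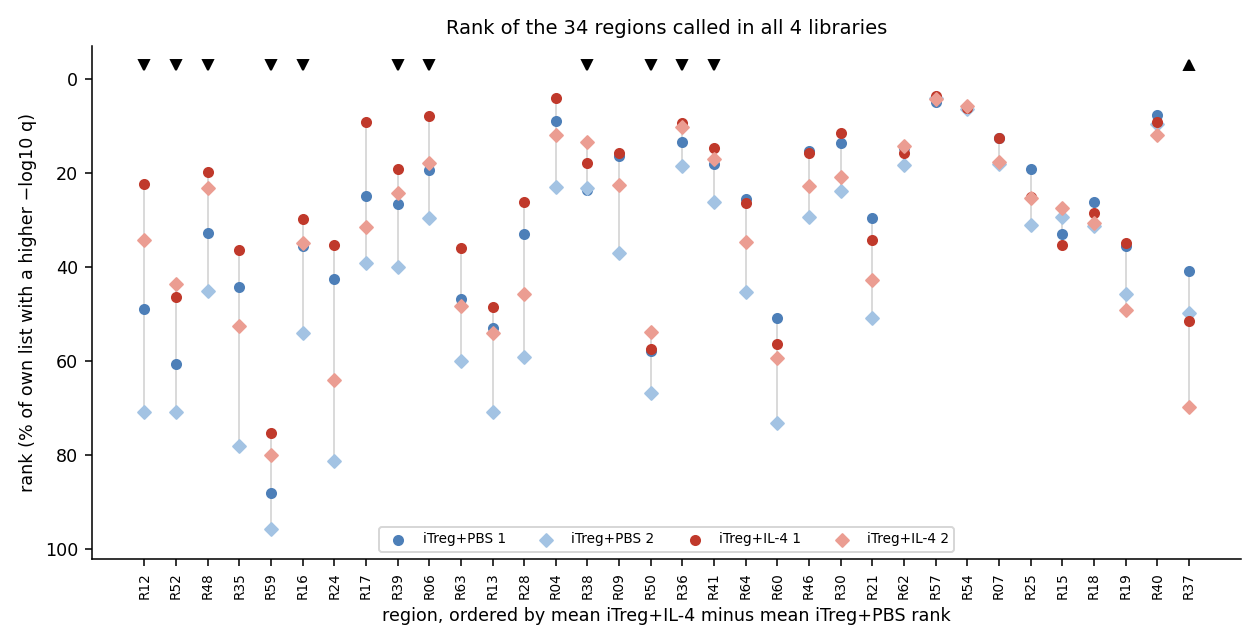
Rank of each of the 34 regions called in all 4 libraries, 1 point per library (strongest at the top of the axis), ordered by the difference between the mean ranks. Downward triangles mark the 11 regions whose iTreg+IL-4 ranks both stood higher than both iTreg+PBS ranks, and the upward triangle marks R37, which stood lower; in 28 columns iTreg+PBS 2 is the lowest point.

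Since ranks depend on the length of a list, they were also taken among the regions called in all 4 libraries only, a choice made after seeing the data. By these ranks 11 of 34 regions (32.4%) again stood higher with IL-4, against 14.3% genome-wide, and 4 (11.8%) stood lower, against 12.7%. The split between higher and lower thus moved from 11 and 1 to 11 and 4 in the window. The 4 that stood lower by ranks among shared regions were R18, R19, R37 and R40. Regions that stood higher by both kinds of rank numbered 9, which were R06, R12, R16, R36, R39, R41, R48, R52 and R59. R38 was not among them, since its shared-region rank in iTreg+IL-4 1 (29.3) stood lower than that in iTreg+PBS 2 (27.3). The median difference was -5.03 in the window and 0.0283 over all regions. In lists of equal length the split was 10 and 4 of 33 regions (30.3% and 12.1%, against 14% and 12.5% genome-wide). Without iTreg+PBS 2, and ranking in the whole lists, 17 of 42 regions called in the remaining 3 libraries stood higher in both iTreg+IL-4 libraries (40.5%, against 24.3%) and 10 stood lower (23.8%, against 36.0%). Without iTreg+PBS 1, 30 of 35 regions stood higher (85.7%, against 70.8%) and 1 lower (2.86%, against 9.94%). Without iTreg+IL-4 1 the counts were 14 higher (41.2%, against 30.2%) and 3 lower (8.82%, against 17.9%) of 34. Without iTreg+IL-4 2 they were 22 higher (62.9%, against 48.4%) and 2 lower (5.71%, against 12.5%) of 35.

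**Figure D4:**
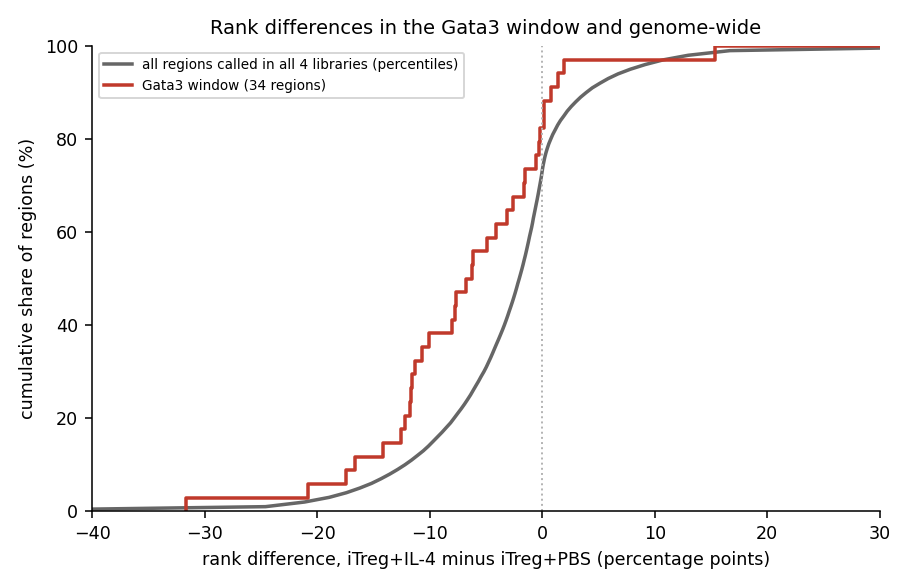
Cumulative share of regions (percent) against the difference in mean rank, iTreg+IL-4 minus iTreg+PBS, for the 34 regions of the Gata3 window (red steps) and for all regions called in all 4 libraries (grey, percentiles). The red curve lies to the left of the grey one below 0, with medians of -6.47 and -2.05, and R37 forms its last step at 15.4.

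The 3 regions with the largest differences without overlap were all distal. R12, at 9649778 to 9650450 and 228 kb downstream, stood at 48.9 and 70.9 in iTreg+PBS and at 22.4 and 34.2 in iTreg+IL-4. The means were 59.9 ± 15.6 and 28.3 ± 8.33 (SD, n = 2), and the difference of -31.6 ranged from -42.6 to -20.6 when each library was left out in turn, the smallest without iTreg+PBS 2. R52, at 10024144 to 10024742 within the Taf3 gene and 146 kb upstream, stood at 60.7 and 70.9 without IL-4, against 46.4 and 43.5 with IL-4. R48, at 9997602 to 9998158 within Taf3 and 119 kb upstream, stood at 32.8 and 45.1 without IL-4, against 19.8 and 23.2 with IL-4. These 2 regions differed by -20.8 and -17.5, and the difference at R48 was -11.3 without iTreg+PBS 2.

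The central 200 bases of every region were searched on both strands for the letters of 7 motifs. They were AGATAA for GATA factors, TTCNNNNGAA for STAT6, TGTGGTT for RUNX, TGANTCA for AP-1, CTTTGAA or CTTTGAT for TCF/LEF, GTGGGAA for RBPJ and CAGGAAG for ETS factors. The GATA letters were found in 7 of 64 regions (10.9%, against 7.86% of 93503 regions on the assembled chromosomes), the STAT6-type letters in 6 (9.38%, against 5.84%) and the RUNX letters in 10 (15.6%, against 8.93%). TCF/LEF letters were found in 7 regions (10.9%, against 7.74%), AP-1 letters in 7 (10.9%, against 12.9%), ETS letters in 8 (12.5%, against 12.8%) and RBPJ letters in 2 (3.12%, against 3.80%). These shares are counts of letters and no test was made. The median GC content of the windows was 46.5%, against 49.5% over all regions.

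The intron 4 region R36, printed above, was the only region of the window with both GATA and STAT6-type letters. Its STAT6-type match TTCCTAGGAA began at base 79 and its GATA match at base 115 of the printed stretch. R10 held STAT6-type and TCF/LEF letters, R12 held GATA and TCF/LEF letters, and R34 held GATA letters. R37 held the RUNX letters and R38 the ETS letters, whereas R40, R05, R04 and the promoter held none of the 7 motifs. Matches within a printed stretch did not overlap each other.

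The same rule was applied to 21721 protein-coding genes whose windows lie within their chromosome. The window of Gata3 held more regions than those of 78.9% of genes, which had a median of 41. Its 56 distal regions were more than those of 95.7% of genes, with a median of 26, and per 100 kb its 8.88 distal regions exceeded 96.4% of genes. A high count was not particular to Gata3. In windows of the 9 factors that act on Gata3, named below, the counts ranged from 38 to 97. They were 38 for Notch1, 54 for Tcf7, 56 for Satb1, 62 for Rbpj, 66 for Lef1 and 68 for Bcl11b. Myb had 72, Runx1 78 and Ets1 97. At least 3 regions called only with IL-4 were found in 9.06% of windows, and no region called only without IL-4 in 77.6%. The median rank difference was lower than in the Gata3 window in 3.02% of the 20410 genes for which it could be formed. Satb1 (-8.35) and Epcam (-8.05) were among these, against -6.47 for Gata3. This placing used ranks in the whole lists and was not repeated under the alternatives. Windows of neighbouring genes overlap, so these percents place the Gata3 window among others and are no test.

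**Figure D5:**
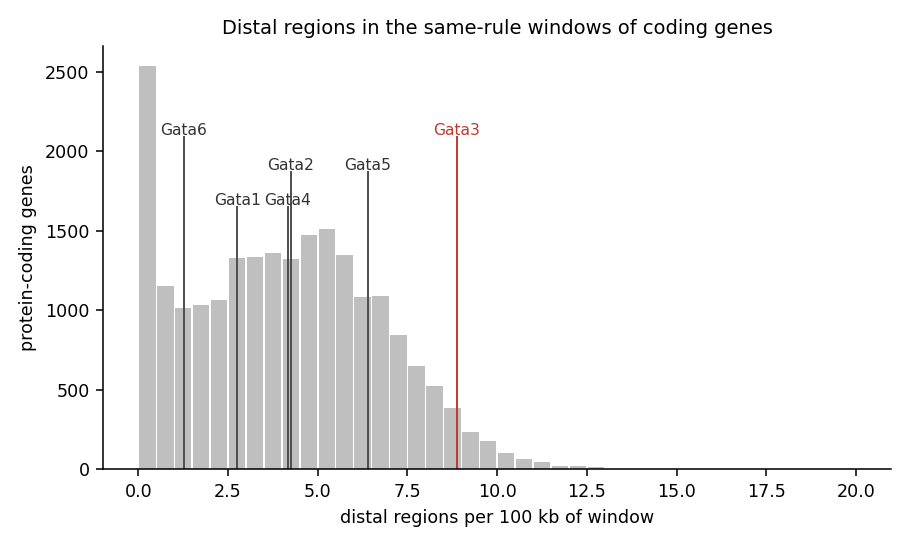
Number of protein-coding genes by the distal regions per 100 kb of their window, with the 6 genes of the GATA family marked. Gata3 stands at 8.88, to the right of the others, of which Gata5 is nearest at 6.39 and Gata6 lowest at 1.26.

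Within the GATA family, only Gata3 was called at its start site in all 4 libraries. No library had a peak within 1 kb of the start sites of Gata1, a factor of red cell development, or of Gata5. Gata2, Gata4 and Gata6 were called in 3 libraries, each missing in iTreg+PBS 2, at ranks between 78.9 and 98.7. For comparison, 57.6% of 21774 protein-coding genes were called at a start site in all 4 libraries and 36.2% in none.

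Genes that act with Gata3 or lie in the Th2 cytokine locus, 28 in number, were listed by role, and no test was made. Against 57.6% of protein-coding genes, 23 of the 28 were called at a start site in all 4 libraries. These were all 5 genes of the IL-4 receptor pathway examined (Il4ra, Il2rg, Jak1, Jak3 and Stat6), all 9 factors that act on Gata3 (Notch1, Rbpj, Tcf7, Lef1, Myb, Ets1, Bcl11b, Runx1 and Satb1) and all 6 partners or antagonists (Zfpm1, Gfi1, Maf, Junb, Runx3 and Tbx21). Stat6, the factor activated by the IL-4 receptor, ranked 12.2 and 16.3 without IL-4, against 11.9 and 12.0 with IL-4. Of the 8 genes known as targets of GATA3 or lying in the Th2 cytokine locus, 3 were called in all libraries (Rad50, Ccr4 and Ccr8) and 3 in none (Il13, Il1rl1 and Ptgdr2). The start sites of Il4 ranked 51.2 in iTreg+PBS 1 and 31.4 and 46.6 with IL-4, with no call in iTreg+PBS 2. Il5 was called in iTreg+IL-4 1 alone, at 87.5. The lineage factors Tbx21 (Th1) and Bcl6 (follicular helper) were called in all 4 libraries.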

How the data were processed

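ATAC-seq libraries were made from 50000 cells each and sequenced on the BGISEQ-500 platform. Per the paper's methods and the submitters' processing notes, the authors mapped read pairs to mm10 with Bowtie2 2.2.5, called peaks in each library with MACS2 2.1.2 and used bedtools 2.16.2. The deposited lists have no column names. From their values, the authors' columns were read as position, −log10 of the q-value and height of the pileup signal, and starts were taken to count from 0. Positions are given counting from 1. A shift for transposase insertions and the removal of duplicates are not given in the sources used here.

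The analysis used Python 3.11.15 with pandas 2.3.3 and numpy 2.4.6, and sequences were read with pysam 0.24.0 from GRCm38. Peaks sharing 1 base were merged. Gene records and curated start sites came from RefSeq, and start sites of both RefSeq and GENCODE defined distal regions. Groups were compared by exact two-sided permutation tests of 2 against 2 libraries. Depth is unknown, and replicates are separate libraries whose cultures or animals the labels do not name, so p-values cover only their spread. Named regions were those within 10 kb of the gene record and those called in 1 condition only. The 5 with the best mean rank away from other genes' start sites were added. So were up to 3 in each direction with the largest rank difference without overlap. R06, R07, R09, R54, R57 and R64 were chosen after their values were seen. The window, the gene lists and the motifs were chosen with earlier results of these data known. On simulated lists of 5000 regions, all 60 regions planted with IL-4 only and all 40 planted without it were recovered. The simulated peaks were evenly spaced with no missed calls, so this recovery was fixed in advance. It checks the counting alone and not the calls in the deposited lists. Alternatives varied the part of each list used, the overlap, the rank, the window, the annotation, the libraries and the replicate block. A pair of genes from the lists of markers and lineage factors is not reported here.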

Additional observations from a re-analysis of the deposited data

How the results depend on the processing

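Of 67 alternatives computed for the 7 summary values of the window, the replicate block aside, 55 kept the direction and, for counts, stayed within 1.5 times. Some of these could hardly differ. The GENCODE record gave the same values as the RefSeq record. Leaving out a library lowered the number of libraries called at the start site from 4 to 3 by design. In the upper 50% of each list, 1 region was called only with IL-4 (2.94%, against 2.14% genome-wide), 1 only without it (2.94%, against 0.301%) and 21 in all 4 libraries (61.8%, against 60.5%). With 100 kb on each side, 1 region was called only with IL-4 (4.76%, against 2.6%) and 10 in all 4 libraries (47.6%, against 51%), as fewer bases were searched. With a reciprocal overlap of 50%, 6 regions were called only with IL-4 (9.38%, against 3.64%). Leaving out each library in turn gave 4 to 11 regions with IL-4 only (6.35% to 17.7%, against 3.41% to 13.6% genome-wide) and 0 to 2 with PBS only (0% to 3.17%, against 1.5% to 8.21%); the cause was not tested. The difference in peaks then ranged from 3.5 (without iTreg+PBS 2) to 14.5 (without iTreg+PBS 1) and that in bases from 1881.5 to 8398.5 without the same libraries. For single regions, 73 of 78 alternatives, again without the block, kept the sign of the rank difference. That of R62 turned to 0.351 with ranks among regions called in all 4 libraries, and without 1 library those of R62, R30 and R35 ranged from -3.27 to 0.257, from -7.64 to 2.51 and from -33.6 to 0.203. Lists of equal length, 500 kb on each side, the GENCODE record, ranks by height and start site choices changed no direction of these 7 values and moved none of their counts of regions past 1.5 times. The count of regions standing lower with IL-4, which is not among them, went from 1 to 4 in lists of equal length, 2 with 500 kb and 0 by height. Sizes did move: the difference in peaks was 9 in the whole lists, 4 in lists of equal length, 3 in the upper 50% and 2.5 with 100 kb, that in bases was 5140, 3827.5, 3250 and 1243, and that in median rank went from -6.66 to -3.36 by height and -10.97 in the upper 50%.

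Replicate numbers are shared by the groups, but nothing in the labels says that they pair the cultures. Deviations of same-numbered libraries correlated across 47767 regions called in all 4 libraries (r = 0.452; regions are not replicates). With the replicate block, the differences were 9 peaks, 5140 bases and -6.66 in median rank. They equal the unblocked values because the design is balanced, and so do the differences of the named regions. Within numbers 1 and 2 the differences were 8 and 10 peaks, 3811 and 6469 bases, and -2.71 and -10.6 in median rank. Depth is unknown, so a missing call does not show closed chromatin.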
